A study of Macaca mulatta with 10 samples.

Results

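The genes described here are the globins and the genes of haem breakdown and iron recycling, in lymph nodes of rhesus macaques under unstable or stable social conditions. They were chosen by symbol from a list of 10, because an earlier look at these data had found 2 globin genes, HBA2 and HBB, lower in unstable animals. Of the 10 symbols 9 had a row among the 18622 gene symbols of the log2 expression table. These were HBA2, HBB, HBD, ERAF, HMOX1, BLVRB, FTL, TFRC and SLC40A1, and FTH1, the ferritin heavy chain, had no row under that symbol. Since the unstable against stable contrast chose the globins, the differences of the 9 genes between the groups are given as values, with no test.

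Red blood cells are filled with haemoglobin, built from alpha and beta globin chains that each hold a haem group with an iron atom. Red cells have no nucleus, and globin mRNA is most abundant in their precursors and persists in the youngest circulating cells. Macrophages take up old red cells, haem oxygenase opens the haem ring and releases the iron, and biliverdin reductase turns the green product into a bile pigment. The freed iron is stored in ferritin or leaves the cell through ferroportin, and most cells take iron up again through the transferrin receptor.

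The tissue was lymph node from 10 male animals, 5 under unstable and 5 under stable social conditions, with 1 Illumina bead array per animal. Age is labelled without a unit, as 6.84, 6.72, 6.7, 5.62 and 5.61 for unstable animals 1 to 5 and 5.87, 5.82, 5.73, 5.84 and 5.74 for stable animals 1 to 5. Unstable animals 1 to 3 and stable animal 5 shared slide 1, stable animals 1 to 4 were on slide 2, and unstable animals 4 and 5 on slide 3. The array probes were designed on human transcripts, so a signal can also depend on how well a macaque sequence matches the probe.

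Median probe intensity lay between 104 and 119 per array, and 44.1% to 44.7% of genes were above background on an array, at a log2 threshold of 6.85. Of 16 lymphocyte and node stroma genes, 14 were detected (above background on at least 3 arrays), with LTB and CCL21 the brightest, and their mean log2 value was 10.03 to 10.15 in unstable and 9.92 to 10.33 in stable animals. Over all 18622 genes limma called 0 at an adjusted p under 0.05 (0.0%), and 956 (5.13%) had an unadjusted p under 0.05. Of the 9 genes 8 had a lower mean in unstable animals, beside 51.1% of all genes. This count includes HBA2 and HBB, which were chosen for being lower, and ERAF, whose difference was -0.001. It therefore does not show a shift of the whole set. For 0 of the 9 did the groups lie fully apart, beside 0.838% of all genes. The median difference was -0.126 log2 units over the 9 genes and -0.002 over all genes. The array read bulk tissue, in which fewer cells of a type and less RNA per cell cannot be told apart.

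The alpha and beta globins were the members with the largest differences. HBA2, 1 of the duplicated alpha globin genes, stood at 11.18, 10.21, 10.93, 10.98 and 10.64 log2 units in unstable animals 1 to 5, against 10.87, 11.69, 11.83, 12.15 and 12.12 in stable animals 1 to 5. Of the stable animals 4 were above every unstable animal, and stable animal 1 lay inside the unstable range. The means were 10.79 ± 0.378 in unstable and 11.73 ± 0.516 in stable animals (SD, n = 5 each), a difference of -0.94 (SE 0.251) or 0.52-fold. The alpha globin genes are near-identical copies, so HBA2 and HBA1 transcripts may both bind this probe.

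HBB, the adult beta globin, measured 12.46, 11.61, 12.23, 12.90 and 11.78 in unstable animals, against 12.58, 13.19, 13.04, 13.11 and 13.22 in stable animals, in the order of their numbers. Again stable animal 1 was the lowest of its group, and 4 of the 5 unstable animals were below every stable animal. Unstable animal 4 alone exceeded a stable animal. The HBB means were 12.19 ± 0.519 in unstable and 13.03 ± 0.261 in stable animals (SD, n = 5 each), a difference of -0.83 (SE 0.228) or 0.562-fold. Among the 3 unstable animals and 1 stable animal on slide 1 the difference was -1.34 for HBA2 and -1.12 for HBB, and social condition and age label cannot be told apart there. Without the 3 unstable animals of higher age label it was -0.923 for HBA2 and -0.688 for HBB, and since the remaining unstable animals were on slide 3, with no stable animal, social condition and slide cannot be told apart in these values.

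HBD, the delta globin that forms a minor adult haemoglobin in humans, was close to background, with 4 of 10 arrays above it. Its values were 6.71, 6.83, 6.75, 6.92 and 6.71 in unstable animals and 6.74, 6.87, 6.85, 6.92 and 7.04 in stable animals. The groups overlapped over most of their range. The difference was -0.097 over all animals, -0.279 within slide 1 and -0.25 after normexp background correction. HBD had no entry under that symbol in the macaque gene table used here. It resembles HBB in sequence, and how much HBB transcript its probe binds was not tested.

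ERAF, the older symbol of the chaperone AHSP that holds free alpha globin until it meets beta globin, was above background on 6 of 10 arrays. It was at 7.29, 6.72, 6.83, 7.0 and 6.69 in unstable and at 6.86, 7.02, 6.79, 6.95 and 6.93 in stable animals. Unstable animal 1 was the highest of all 10 animals, and the unstable values enclosed the stable ones. The means were 6.91 in each group, with SDs of 0.246 in unstable and 0.0871 in stable animals.

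**Figure D1:**
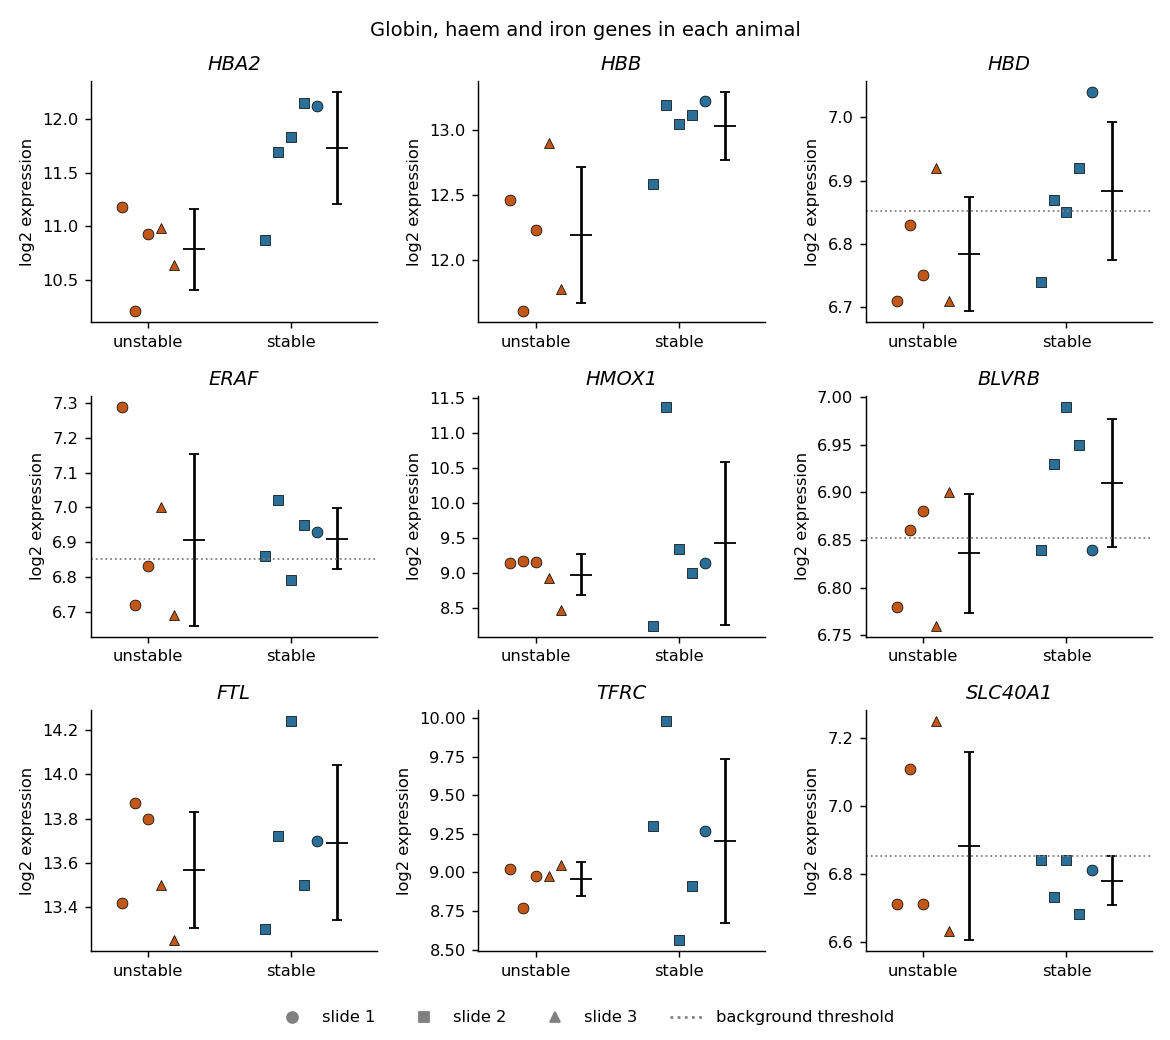
Log2 expression of the 9 measured genes, 1 panel per gene, with 1 point per animal (unstable left, stable right), marker shape for the slide, and the mean ± SD of 5 animals as a black bar. HBA2 and HBB are high in 4 of 5 stable animals, stable animal 2 stands alone for HMOX1 at 11.38, and HBD, ERAF, BLVRB and SLC40A1 lie around the dotted background threshold.

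The enzymes of haem breakdown overlapped between the groups. HMOX1, the inducible haem oxygenase that opens the haem ring, was at 9.15, 9.17, 9.16, 8.93 and 8.48 in unstable and at 8.25, 11.38, 9.35, 9.0 and 9.15 in stable animals. Stable animal 2 stood alone, and the other 9 animals lay between 8.25 and 9.35. The means were 8.98 ± 0.292 in unstable and 9.42 ± 1.17 in stable animals (SD, n = 5 each), a difference of -0.45 (SE 0.471). Without stable animal 2 the difference was 0.04, with the other 4 stable animals at 8.93 ± 0.479. Within slide 1 it was 0.01.

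BLVRB, a biliverdin reductase, was near background, with 6 of 10 arrays above it. It stood at 6.78, 6.86, 6.88, 6.76 and 6.90 in unstable and at 6.84, 6.93, 6.99, 6.95 and 6.84 in stable animals. The 3 highest values were those of stable animals 2, 3 and 4, all on slide 2. The difference was -0.08 (SE 0.042), -0.0059 within slide 1 and -0.199 after normexp background correction. The low signal is that of BLVRB and not of every biliverdin reductase. BLVRA, which is not among the chosen genes and was picked after its values were seen, was above background on 10 arrays. It averaged 10.17 in unstable and 10.2 in stable animals, a difference of -0.03 (SE 0.165).

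The iron genes overlapped between the groups throughout. FTL, the ferritin light chain, was at 13.42, 13.87, 13.80, 13.50 and 13.25 in unstable and at 13.30, 13.72, 14.24, 13.50 and 13.70 in stable animals. Stable animal 3 was the highest and unstable animal 5 the lowest. The difference was -0.13 (SE 0.171), and without stable animal 3 it was 0.01.

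TFRC, the transferrin receptor that carries iron into cells, was at 9.02, 8.77, 8.98, 8.98 and 9.05 in unstable and at 9.30, 9.98, 8.56, 8.91 and 9.27 in stable animals. The stable animals enclosed all unstable animals, with stable animal 2 highest, as for HMOX1, and stable animal 3 lowest. The means were 8.96 ± 0.11 in unstable and 9.20 ± 0.531 in stable animals (SD, n = 5 each), a difference of -0.24 (SE 0.213) that was -0.05 without stable animal 2.

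SLC40A1, the iron exporter ferroportin, was above background on 2 of 10 arrays. It was at 6.71, 7.11, 6.71, 7.25 and 6.63 in unstable and at 6.84, 6.73, 6.84, 6.68 and 6.81 in stable animals. The arrays above background were those of unstable animals 2 and 4, and without unstable animal 4 the difference was 0.00988, against 0.10 (SE 0.114) over all 10 animals.

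**Figure D2:**
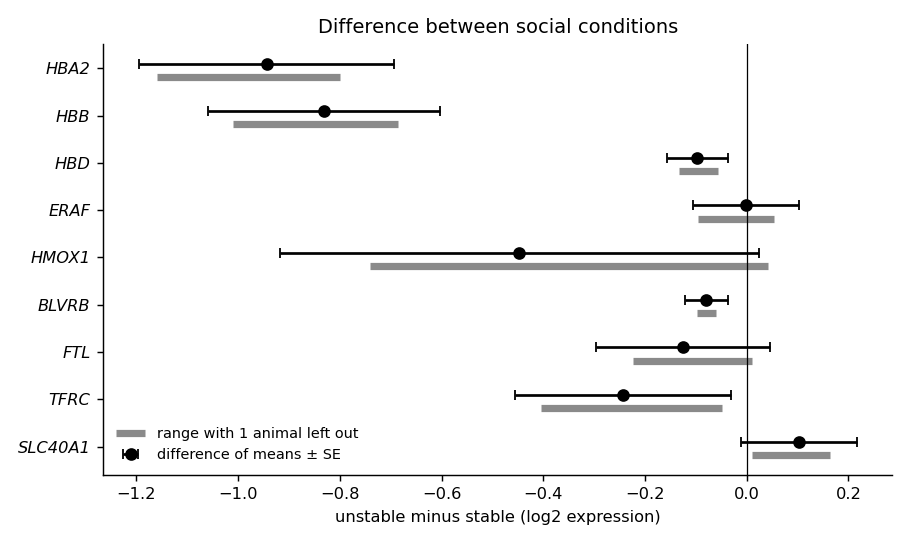
Unstable minus stable difference of the mean log2 expression of each of the 9 genes, with limma's standard error as a black bar and, in grey, the range of the difference when each animal was left out in turn. HBA2 and HBB stay between -1.16 and -0.685 in every such range, while HMOX1, FTL and ERAF have ranges that reach both sides of 0.

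In the absence of FTH1, 6 ferritin heavy chain-like genes, FTHL2, FTHL3, FTHL7, FTHL8, FTHL11 and FTHL12, were above background on all arrays, and were picked after their values were seen. FTHL12 and FTHL7, the brightest, averaged 11.48 ± 0.103 and 11.59 ± 0.14 in unstable animals and 11.63 ± 0.126 and 11.68 ± 0.125 in stable animals (SD, n = 5 each). The 6 genes differed by -0.15 to -0.02 between the groups, and limma called 0 of them. Such genes are mostly near-copies of FTH1, and which transcript a probe bound was not tested.

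The 9 genes differed widely in how much they varied among animals of a group. The within-group SD of HMOX1 was 0.852 log2 units, the 28th largest of the 8940 detected genes. HBA2, with 0.452, and HBB, with 0.411, were 230th and 327th of those genes. TFRC and FTL were 411th and 730th, while BLVRB, with 0.0649, was 8096th.

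The series' design also allows the globin level of each animal to be set against the other genes. The mean of each social group was first subtracted from every gene, so that the contrast that chose the globins was taken out and only differences among animals of a group were used. HBA2 and HBB, which come from different probes, ranked the animals alike (Pearson r = 0.76, exact permutation p = 0.00611; Spearman rho = 0.77, exact permutation p = 0.0153; n = 10, two-sided). With slide means subtracted as well r was 0.77 (exact permutation p = 0.0139). Without any subtraction r was 0.90 and rho 0.88, given without a test, since these values keep the group difference by which the pair was chosen. Without stable animal 1, the lowest of its group in both genes, r was 0.74 (exact permutation p = 0.0788). Leaving out unstable animals 2 and 5, the farthest from the median of HBB, gave r = 0.66 (exact permutation p = 0.0861). With unstable animal 2 alone left out r was 0.67, and with unstable animal 5 alone 0.78 (exact permutation p = 0.0219 and 0.0215). The call was thus lost without stable animal 1 and without this pair. With unstable animal 1 left out, which leaves as many animals as without stable animal 1, r was also 0.74 (exact permutation p = 0.00486). No other pair was left out, and the reason for the lost calls was not tested.

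HBB was then set against the other 7 genes, and 0 of the 7 relations passed after Benjamini-Hochberg adjustment. None had an unadjusted exact permutation p under 0.05 for r. HBD and ERAF had the highest coefficients, and what the HBD probe binds in macaque was not tested. ERAF had r = 0.67 (exact permutation p = 0.109, adjusted 0.396) and rho = 0.82 (exact permutation p = 0.0182), and without unstable animals 2 and 5 its r was 0.30. HBD had r = 0.52 (exact permutation p = 0.113, adjusted 0.396) and rho = 0.36 (exact permutation p = 0.324), and r = 0.83 without those animals. Without subtraction of group means, and so with the group difference of HBB left in, r was 0.66 for HBD (rho = 0.76) and 0.45 for ERAF (rho = 0.54).

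Of the haem breakdown genes among the 9, HMOX1 had a lower coefficient and BLVRB one of the other sign. The difference between coefficients was not tested. Outside the 9, HMOX2, another haem oxygenase, had r = 0.77 with HBB, and BLVRA, another biliverdin reductase, had -0.0. Both were picked after their values were seen and are given without a test. HMOX2 was above background on 10 arrays but close to it, at 6.87 to 7.16 in unstable and 6.92 to 7.18 in stable animals. Its r was 0.60 without subtraction of group means. The median r with HBB of the 58 haem and iron genes outside the 9 was 0.07, with group means subtracted. HMOX1 had r = 0.31 with HBB (exact permutation p = 0.211, adjusted 0.491) and rho = 0.21 (exact permutation p = 0.55), and r = 0.41 with slide means also subtracted or with unstable animals 2 and 5 left out. The highest HMOX1 of all, in stable animal 2, came with an HBB of 13.19, and the lowest, in stable animal 1, with an HBB of 12.58. Unstable animal 2, with the lowest HBB and the lowest HBA2 of all animals, had an HMOX1 of 9.17, the highest of its group. BLVRB had r = -0.39 (exact permutation p = 0.281, adjusted 0.491; rho = -0.47, exact permutation p = 0.209) and r = 0.21 without subtraction of group means.

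For the iron genes the coefficients were smaller. FTL had r = 0.05 (exact permutation p = 0.873, adjusted 0.873; rho = -0.05), TFRC r = 0.13 (exact permutation p = 0.607, adjusted 0.804; rho = 0.04) and SLC40A1 r = 0.21 (exact permutation p = 0.689, adjusted 0.804; rho = -0.03). The sign for TFRC and SLC40A1 depended on the globin used, with r = -0.11 and -0.25 against HBA2. Without unstable animal 4, the animal with the highest SLC40A1, the relation of SLC40A1 to HBB was -0.54. With unstable animals 2 and 5 left out the coefficients were 0.17 for FTL, 0.08 for TFRC and 0.49 for SLC40A1. With 10 animals, a relation that missed the threshold is not shown to be absent.

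**Figure D3:**
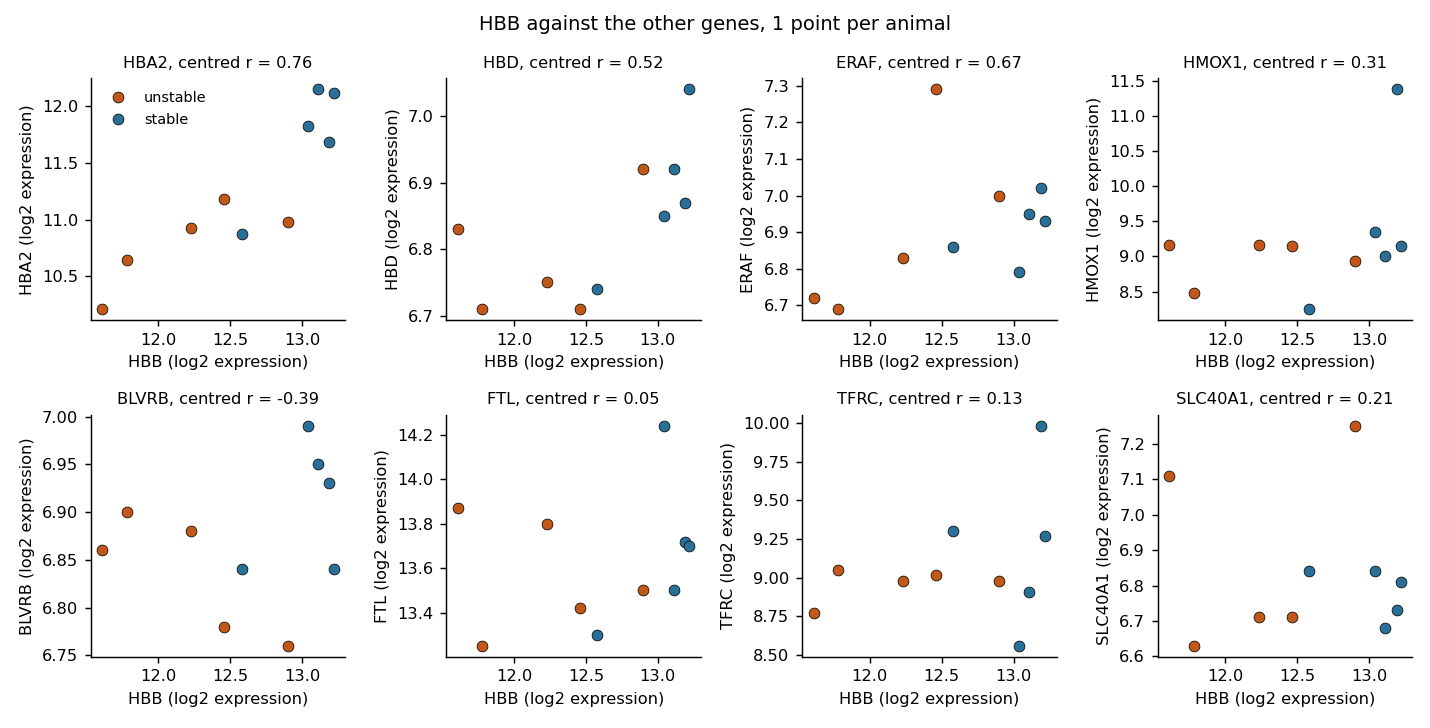
Log2 expression of HBB (x axis) against each of the other 8 genes (y axes), with 1 point per animal in unstable and stable groups, and Pearson's r after subtraction of group means above each panel. HBA2 follows HBB with r = 0.76, while FTL and TFRC scatter with r = 0.05 and 0.13.

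Among all 36 pairs of the 9 genes the median group-centred r was 0.15, with 6 pairs above 0.5 and 1 below -0.5. Besides HBB with HBA2, HBD and ERAF, the pairs above 0.5 were HBA2 with ERAF, HBD with SLC40A1 and HMOX1 with TFRC. The pair below -0.5 was ERAF with BLVRB, at -0.58. These coefficients share the same 10 arrays and are a description.

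Over the 10 animals without subtraction of group means, HBA2 was the gene most like HBB of 8939 detected genes. YIF1B, a protein of transport between endoplasmic reticulum and Golgi, and TMC5 each had r = 0.83. RPS24, a ribosomal protein, had r = 0.82, and HOXC13, ZNF234, C1orf127, STRN4 and GMPPA with 0.79 to 0.80. HBD ranked 92nd, ERAF 622nd, HMOX1 821st and TFRC 1263rd. These ranks include the group difference of HBB. With group means subtracted HBA2 ranked 73rd, ERAF 226th, HBD 731st and HMOX1 1704th.

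At the other end, SELT, selenoprotein T of the endoplasmic reticulum, ran opposite to HBB with r = -0.96, and -0.92 with group means subtracted. MGC16028, GSPT2, a translation release factor, KBTBD3 and CHD7, a chromatin remodeller, had r from -0.88 to -0.86, and from -0.75 to -0.69 with group means subtracted. These genes were picked from 8939 by their r, which is given as a measure of likeness only.

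The other genes of haem and iron handling had as many higher as lower means in unstable animals. Of 58 measured genes of that list outside the 9, limma called 0, with 29 higher and 29 lower means in unstable animals and a median difference of -0.003 log2 units, against -0.002 over all genes. An unadjusted p under 0.05 was found for 6 of the 58 (10.3%, beside 5.13% of all genes), 5 of them higher in unstable animals. Of the 58, 32 were detected, and the 4 of smallest p with higher means in unstable animals were CYBRD1, FECH, UROS and ISCU. FECH, ferrochelatase, which puts iron into the haem ring, averaged 8.91 ± 0.265 in unstable and 8.47 ± 0.173 in stable animals (SD, n = 5 each; difference 0.44, SE 0.126, limma adjusted p = 0.918). FECH was 9.06, 9.23, 8.52, 8.87 and 8.88 in unstable and 8.72, 8.35, 8.44, 8.28 and 8.55 in stable animals, and only unstable animal 3 was below a stable one. Its r with HBB was -0.74, and -0.42 with group means subtracted.

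UROS, the synthase that closes the porphyrin ring, averaged 9.34 ± 0.295 in unstable and 8.93 ± 0.256 in stable animals (SD, n = 5 each; difference 0.41, SE 0.154, limma adjusted p = 0.942). CYBRD1, a ferric reductase of iron uptake, averaged 10.89 ± 0.212 in unstable and 10.50 ± 0.141 in stable animals (SD, n = 5 each; difference 0.39, SE 0.102, limma adjusted p = 0.892), with unstable animal 1 alone inside the stable range. ISCU, a scaffold for iron-sulphur clusters, differed by 0.19 (SE 0.077, limma adjusted p = 0.942).

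With lower means in unstable animals, ABCB6, a porphyrin transporter, differed by -0.20 (SE 0.088), LRP1, the receptor for haem bound to haemopexin, by -0.19 (SE 0.085), and UROD, an enzyme of haem synthesis, by -0.15 (SE 0.079). C14orf58, the older symbol of the haem transporter relative FLVCR2, differed by -0.05 (SE 0.033). These 4 had limma adjusted p from 0.942 to 0.945.

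**Figure D4:**
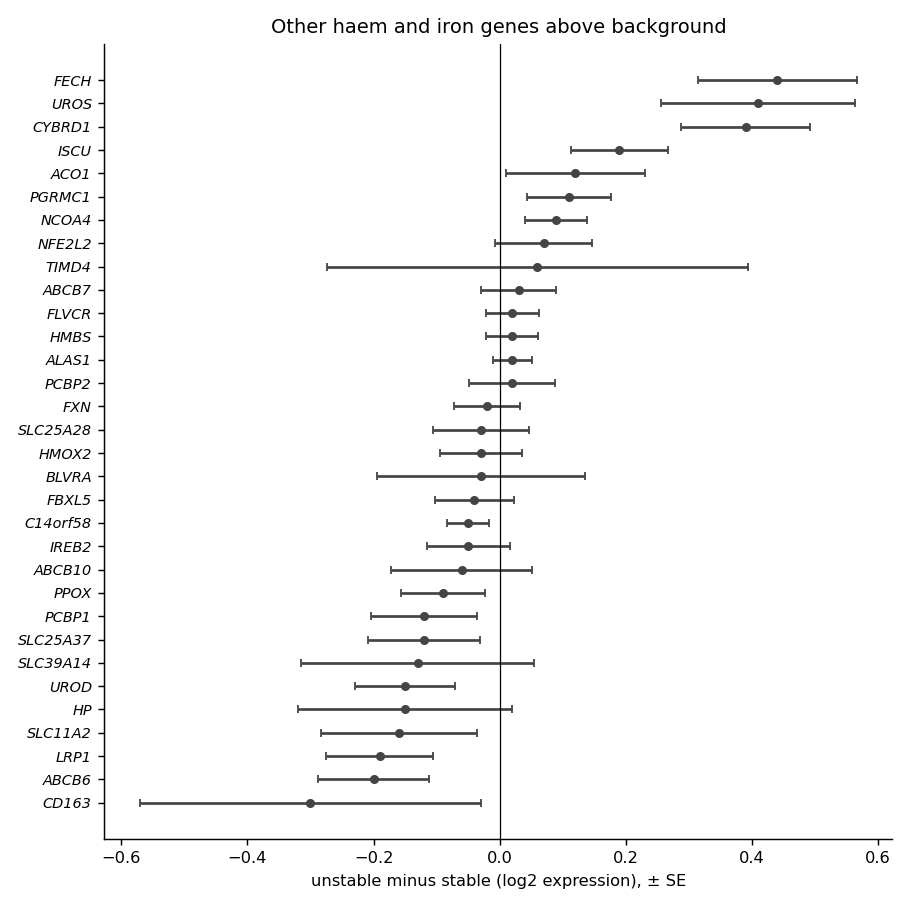
Unstable minus stable difference of the 32 further detected haem and iron genes (log2 units, bars ± limma's standard error), sorted by size. FECH, UROS and CYBRD1 stand at the upper end with 0.44, 0.41 and 0.39, and limma called none of the 32.

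The other red cell genes, further globins included, were mostly dim. Of 45 erythroid genes outside the 9, 11 were detected, 28 had lower and 17 higher means in unstable animals, and limma called 0. The median difference was -0.01, against -0.002 over all genes. From these 45, 16 markers of red cell precursors and of embryonic and fetal globins were picked later, outside the plan. HBG1 was the only detected gene among the 16, and the other detected erythroid genes lie outside this pick. Of the 16, 10 were above background on no array, among them SLC4A1, the anion exchanger of the red cell membrane, and the factors KLF1 and GATA1. ALAS2, the first enzyme of haem synthesis in red cell precursors, was above background on 1 array, at 6.64 to 6.84 in unstable and 6.68 to 6.88 in stable animals, and HBG1, a fetal globin, on 5 arrays.

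Of the 11 brighter erythroid genes, FECH is given above, and HBG1, HBQ1, EPB41, EPB49, TAL1, CA2, BCL2L1 and SLC14A1 differed by -0.08 to 0.13. IFIT1L differed by -0.64 (SE 0.3), with 8.69 in stable animal 3 and 6.66 to 7.85 in the other 9 animals. SELENBP1 differed by 0.47 (SE 0.313), with 9.54 in unstable animal 4. None of these 10 passed (limma adjusted p from 0.942 to 0.997).

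Markers of macrophages, neutrophils, platelets, vessel endothelium and fat were set beside the globins. The macrophage list, with 17 of 21 genes above background and CSF1R and C1QB the brightest, had a mean log2 value of 8.32 to 8.69 in unstable and 8.13 to 8.91 in stable animals. The neutrophil list, 8 of 20 above background, was at 7.06 to 7.13 in unstable and 7.10 to 7.47 in stable animals, with 6 of the 20 genes higher and 14 lower in unstable animals. Of its 2 brightest genes, MMP9, a matrix protease, averaged 10.43 ± 0.418 in unstable and 10.49 ± 0.617 in stable animals, and S100A9 averaged 8.13 ± 0.333 in unstable and 9.63 ± 1.74 in stable animals (SD, n = 5 each), with 12.06 in stable animal 2. The platelet list, 3 of 12 above background, was at 6.82 to 6.93 in unstable and 6.77 to 6.90 in stable animals. Vessel endothelium, 11 of 15 above background, was at 8.00 to 8.26 in unstable and 8.02 to 8.40 in stable animals, and fat markers, 6 of 9 above background, at 7.37 to 7.97 in unstable and 7.32 to 7.66 in stable animals.

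With group means subtracted, HBB had r = 0.66 with the mean of the 45 erythroid genes (exact permutation p = 0.0717, adjusted 0.443), 0.61 with fat (exact permutation p = 0.119), 0.44 with endothelium (p = 0.181) and 0.40 with platelets (p = 0.221), each by exact permutation. It had r = 0.29 with the haem and iron list, 0.21 with neutrophils, 0.02 with macrophages and -0.21 with the lymphocyte and stroma list (exact permutation p from 0.356 to 0.955). None of the 8 relations passed after adjustment, and the part of these cells in the globin values was not tested. The erythroid mean moved little, at 6.81 to 6.87 in unstable and 6.82 to 6.88 in stable animals, with 11 of the 45 genes detected. The median r of the 45 genes with HBB was 0.18. SELENBP1, 1 of the 11, had r = 0.66 with HBB and stood at 9.54 in unstable animal 4.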

How the data were processed

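Lymph node RNA of 10 animals was read on 1 array each, and groups, replicate numbers, slides and age labels come from the labels. The authors deposited probe intensity values without normalization between arrays for 24526 probes, and log2 values for 18622 gene symbols whose distributions are nearly equal across arrays. The only tool in the submitters' processing notes is GenomeStudio, and what else was done is not given in the sources used here. The log2 table was used as deposited. Background was set per array at the most frequent log2 value plus 3 SDs, taken from the lower flank of the distribution, and a detected gene passed it on at least 3 arrays. Each of the 9 measured genes was matched to the probe whose quantile-normalized intensity followed it best (r of at least 0.9994, next probe at most 0.981). Of the 9 symbols, 6 are symbols and 1 a synonym in a macaque gene table (RefSeq, T2T-MMU8v2.0), and HBD and ERAF are not listed there under those symbols.

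The functions lmFit and eBayes of limma 3.58.1 (R 4.3.3) fitted all genes on group alone, two-sided, and p-values were adjusted by Benjamini-Hochberg over the whole table at a threshold of 0.05. Relations across animals used Pearson's r after subtraction of group means, with all 14400 orders of animals within groups as the exact permutation test, and values with nothing subtracted are given without a test. FTH1 had been planned as an eighth relation. Fit and relation test were tested on simulated data. The members, gene lists and tests were chosen with earlier results of these data known. Named genes are the members, the 4 of smallest p in each direction of the haem and iron list, all erythroid genes above background, the 2 brightest of each marker list (some are left unnamed), and the 10 most and 5 least like HBB (1 of the 10 is not reported here), apart from genes said to be picked later. Alternatives were the replicate number as a block, slide, age label, other normalizations, normexp background correction (offset 16), and each animal left out in turn. The number of arrays limits the precision. Figures were drawn with matplotlib 3.10.9.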

Additional observations from a re-analysis of the deposited data

Results flagged for a closer look

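HBB in stable animal 1, at 12.58, stood apart from the other stable animals at 13.04 to 13.22, with a gap of 0.73 of the group's range. The mean of HBA2 and HBB in the same animal was 11.73, against 12.44 to 12.67 in the other stable animals. TFRC in unstable animal 2 was 8.77, against 8.98 to 9.05 in the other unstable animals. These are 3 of 36 groups tested for a lone value (critical value 0.71), and chance alone marks about 1 in 20. HMOX1 in stable animal 2 was not marked, with a gap of 0.65 of the stable group's range.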

How the results depend on the processing

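The mean difference of HBA2 and HBB, by which the pair was chosen, was -0.888 over all animals and -1.23 to -0.742 under the alternatives run. The replicate block also gave -0.888, which it cannot move in a balanced design, and slide as a fixed block repeats the value within slide 1 (-1.23), which rests on stable animal 5 as the only stable animal there. The deviations of same-numbered animals correlated at -0.06 to 0.01, which does not show whether these animals share more than a number. With slide as a fixed block limma called 1 gene, MRPL38, which is none of the 9, and it called 0 under the other settings. The relation of HBA2 to HBB was 0.67 to 0.89 with 1 animal left out, and it missed the threshold without stable animal 1. No relation of HBB to another member passed under any setting run, but signs changed. BLVRB was 0.21 without group centring and 0.01 on unnormalized intensity. ERAF was -0.1 with unstable animals 2 and 5 left out and no group centring. FTL was -0.05 by rho and -0.21 to 0.36 with 1 animal left out. TFRC was -0.11 with HBA2 in place of HBB. SLC40A1 was -0.07 without centring, -0.03 by rho, -0.25 with HBA2, -0.04 with the mean of both globins, and -0.54 to 0.62 with 1 animal left out. The cause was not tested. HBD, BLVRB, ERAF and SLC40A1 lie at the background threshold, which limits what their differences can show.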

Other observations

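The high HMOX1 value of stable animal 2 came with other genes, all picked after their values were seen. HMOX1 exceeded the median of the other 9 animals by 2.23 log2 units, the 5th largest excess on that array among the 8940 detected genes. Ahead of it were S100A9 (3.68), a calcium-binding protein of neutrophils and monocytes, and TIMP1 (2.67), an inhibitor of matrix proteases. The chemokine CCL20 (2.35) and SOD2 (2.33), the mitochondrial superoxide dismutase, were also ahead. S100A9 was 12.06 there and 7.66 to 10.87 in the others.

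With group means subtracted, the r of HMOX1 with the neutrophil list mean was 0.97 and rho 0.77, given without a test, since stable animal 2 had been seen to be high in HMOX1 and in S100A9, a gene of that list. Of the 8 detected genes of that list, S100A9, CAMP, CSF3R and MPO were higher in stable animal 2 than in any other animal. MMP9, IL8RA, FCGR3B and PGLYRP1 were not, at 10.26, 6.86, 6.96 and 6.97 there. Without stable animal 2 the r of HMOX1 with the neutrophil list was 0.79 (exact permutation p = 0.0424, adjusted 0.0847 over 6 relations), and none of the 6 passed. These 6 relations were not planned, and the animal left out was chosen by its value. The adjustment does not cover the marker lists that were passed over, so the p-values of this paragraph are a description. The r of HMOX1 with the macrophage list was 0.36 over all animals (exact permutation p = 0.448, adjusted 0.673) and 0.83 without stable animal 2 (exact permutation p = 0.0208, adjusted 0.0847). With FTL the coefficients were 0.37 over all animals (exact permutation p = 0.376; rho = 0.71, exact permutation p = 0.0251) and 0.81 without stable animal 2 (exact permutation p = 0.0288, adjusted 0.0847). With TFRC the sign turned, with 0.58 over all animals and -0.62 without stable animal 2 (exact permutation p = 0.301 and 0.174). The source of the HMOX1 signal was not tested.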
